A study of Mus musculus with 48 samples.

Results

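The inferior olive of ATXN1-82Q transgenic (Tg) males was compared with that of wild-type (WT) males at 5 weeks of age. Both groups were on the FVB/NJ background and each held 3 RNA-seq libraries, so that the comparison rests on 6 of the 48 libraries of the series, all of which stand in a table of their own. The Tg mice carry a human ATXN1 cDNA with 82 glutamine codons under the promoter of Pcp2, which is active in Purkinje cells of the cerebellar cortex, so the tissue sampled here is one in which the transgene is not meant to be expressed. The remaining libraries come from the cerebellum, from 12 week old mice and from a knock-in (KI) line, Atxn1 154Q/2Q on C57BL/6J, in which the expanded gene has its own regulatory elements. Each library is poly-A selected bulk RNA of the dissected nucleus, the replicates are described as biological, and 1 person took all tissue, finding the olive by landmarks of the ventral brainstem. With 3 libraries a group, an exact permutation test of a single gene cannot go below p = 0.1, so differences were tested with limma, which shares the estimate of the spread over genes.

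Spinocerebellar ataxia type 1 is caused by an expanded glutamine tract in ATXN1, and Purkinje cells are the neurons that suffer most. The inferior olive, a group of nuclei in the ventral medulla, sends climbing fibers to Purkinje cells and receives inhibitory input from the cerebellar nuclei, so the structures form a loop. The olive lies at the surface of the medulla under the leptomeninges, the collagen-rich membranes that hold fibroblasts and vessels, and not far from the choroid plexus of the fourth ventricle, whose epithelium secretes cerebrospinal fluid and makes transthyretin (Ttr).

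Values are FPKM, fragments scaled to transcript length and to the fragments mapped in the library, as deposited. Between 12832 and 13007 genes reached 1 FPKM in a library, and the 10 most abundant genes took 5.51% to 8.79% of the FPKM. The number of fragments is unknown, but the lowest FPKM values, which stand for single fragments, put the deepest library at 1.28 times the shallowest. Mouse Atxn1 itself was at 5.83, 6.38 and 5.56 FPKM in the WT libraries and 6.36, 6.37 and 5.56 FPKM in the Tg libraries, a log2 difference of 0.041 ± 0.075 (SE), and the groups overlapped. A human transgene has no entry of its own in these tables. The olive's own markers were present in every library. Crh, the corticotropin-releasing hormone of olivary neurons, stood at 17.4, 17.1 and 18.6 FPKM in the WT libraries and 13.1, 19.2 and 22.4 FPKM in the Tg libraries. Htr5b, a serotonin receptor gene enriched in the olive, was at 4.87, 6.6 and 7.79 FPKM in Tg against 5.83, 6.76 and 7.04 FPKM in WT, and the Hox genes of the hindbrain, which the cerebellum lacks, were expressed as well (Hoxc4, 20.9, 20.3 and 17.4 FPKM in Tg against 18.2, 18.4 and 16.5 FPKM in WT).

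At an adjusted p below 0.05, limma called 0 of the 13853 genes tested (0%), and the lowest adjusted p was 0.108. At an unadjusted p below 0.05 there were 909 genes (6.56% of those tested), of which 561 (4.05%) were higher and 348 (2.51%) lower in Tg. The count of lower genes changed with single libraries: it was 195 without WT replicate 1, 204 without WT replicate 3, 215 without Tg replicate 2 and 571 without Tg replicate 3. Over all tested genes the median log2 difference was -0.0031, and 48.1% of genes were on the higher side. The 3 Tg libraries lay above all 3 WT libraries in 825 genes (5.96%) and below all of them in 835 (6.03%). With robust moderation limma called 2 genes, Ifitm2 and Col3a1, at adjusted p values of 0.0378 and 0.0468. With the settings used here no difference given below for the 5 week Tg olive passed the correction over all genes. The plot of differences against p shows where the gene groups described next stand among all genes.

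**Figure D1:**
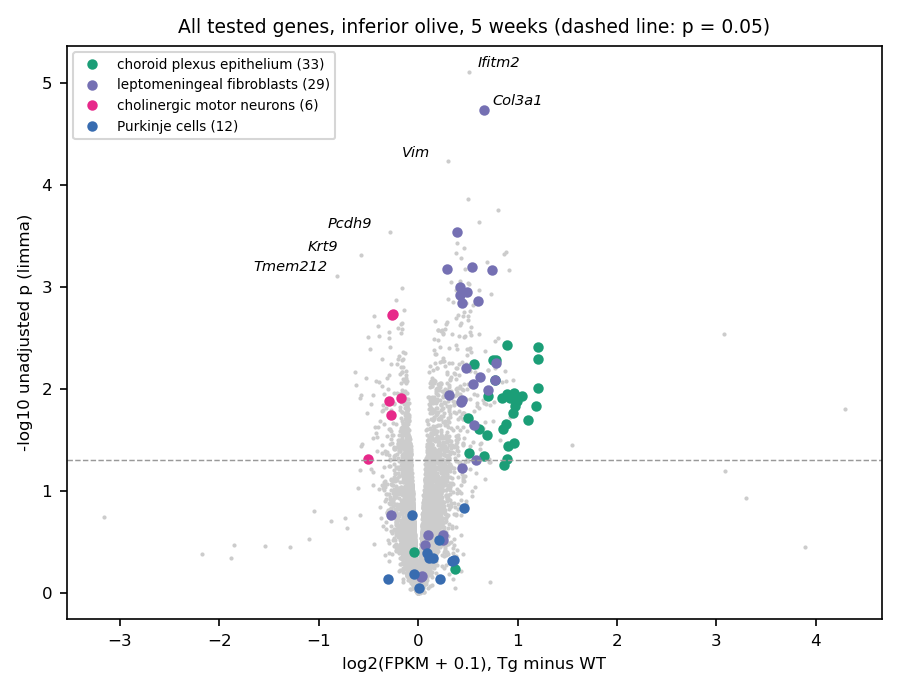
Each dot is 1 of the 13853 tested genes, with the Tg minus WT difference in log2(FPKM + 0.1) on the x axis and the unadjusted limma p on a -log10 scale on the y axis. The 33 choroid plexus and 29 leptomeningeal markers lie almost wholly on the higher side, the 6 motor neuron markers on the lower side, and the 12 Purkinje cell markers all at an unadjusted p above 0.05.

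The 6 genes with the lowest p on the higher side were Ifitm2, Col3a1, Vim, Serping1, Nid2 and Col1a2. Ifitm2 (chromosome 7, 140954839 to 140955961, mm10), which encodes an antiviral protein of cell membranes, was at 12.6, 11.2 and 11.8 FPKM in the WT libraries and 17.4, 16.3 and 17.3 FPKM in the Tg libraries. That is a log2 difference of 0.51 ± 0.054 (SE), or 1.43-fold, with an adjusted p of 0.108 by limma. Col3a1 (chromosome 1, 45311538 to 45349706), the gene of type III collagen, was at 3.65, 3.67 and 4.12 FPKM in the WT libraries and 5.6, 6.11 and 6.57 FPKM in the Tg libraries, 1.58-fold higher, with a log2 difference of 0.66 ± 0.077 (SE) and an adjusted p of 0.127. In both genes the lowest Tg library lay well above the highest WT library. Vim, the intermediate filament vimentin, differed less in size but as evenly, with 34.3, 33.7 and 33.9 FPKM in Tg against 28.4, 28.3 and 26.2 FPKM in WT (log2 difference 0.30 ± 0.04 (SE), adjusted p = 0.272). Serping1, the inhibitor of complement C1, was 1.42-fold higher (9.35, 9.89 and 11.5 FPKM in Tg against 7.04, 6.87 and 7.55 FPKM in WT). Nid2, a basement membrane protein, and Col1a2, a chain of type I collagen, complete the 6, at 1.53-fold (1.71, 1.72 and 1.95 FPKM in Tg against 1.18, 1.04 and 1.19 FPKM in WT) and 1.31-fold (12.1, 10.7 and 11.6 FPKM in Tg against 9.42, 8.12 and 8.55 FPKM in WT). The adjusted p of these last 3 genes was 0.456.

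Ifitm2 and its neighbor Ifitm3 belong to a family of similar genes, so reads can be split between copies in a way the tables do not show. Their promoters are printed here because the 2 genes had the lowest p of the 30 interferon-stimulated genes tested. Each runs from 250 bases before to 50 bases after the RefSeq start (GRCm38.p6, the patch release of mm10, minus strand), and capitals mark GAAA, any 2 bases and GAAA again, the letters of the interferon response element, searched on both strands.
Ifitm2, chr7:140955912-140956211: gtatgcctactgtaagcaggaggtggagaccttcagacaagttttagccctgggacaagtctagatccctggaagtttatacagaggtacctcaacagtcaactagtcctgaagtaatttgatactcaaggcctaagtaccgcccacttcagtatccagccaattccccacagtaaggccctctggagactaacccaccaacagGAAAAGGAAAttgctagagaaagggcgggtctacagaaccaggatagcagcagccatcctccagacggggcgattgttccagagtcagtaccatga
Ifitm3, chr7:141010695-141010994: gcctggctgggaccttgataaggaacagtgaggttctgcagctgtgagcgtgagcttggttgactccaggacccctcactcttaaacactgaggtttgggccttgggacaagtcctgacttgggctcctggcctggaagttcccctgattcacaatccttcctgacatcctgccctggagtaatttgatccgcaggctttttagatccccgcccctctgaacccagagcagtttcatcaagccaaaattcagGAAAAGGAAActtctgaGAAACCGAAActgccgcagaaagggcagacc
The Ifitm2 promoter holds 1 match and that of Ifitm3 holds 2. These letters occur in 3.44% of the 32851 promoters of that length in the RefSeq table and in 14 of the 25 tested interferon-stimulated genes with an entry there (56%). The first share counts promoters, 32851 for 27025 symbols. The second counts a gene when any of its promoters matched, so the 2 shares are not on the same unit. A match describes the sequence and says nothing of binding.

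The interferon-stimulated genes as a group gave a small median difference. Of 42 written down, 38 had an entry and 30 were tested, 22 of them on the higher side with a median log2 difference of 0.094. At an unadjusted p below 0.05, 6 were higher and 0 lower, against 4.05% and 2.51% of all genes, and without WT replicate 3 the first count was 3 and the median 0.034. Ifitm3 was at 16.7, 14.4 and 13.4 FPKM in the WT libraries and 16.8, 18.8 and 17.7 FPKM in the Tg libraries, with all Tg libraries above WT by a small margin. B2m, the light chain of class I major histocompatibility complexes, was at 83.6, 83.2 and 83.8 FPKM in Tg against 80.1, 79.8 and 74.98 FPKM in WT, and H2-K1, a heavy chain, at 10.3, 10.2 and 11.5 FPKM in Tg against 9.84, 9.22 and 9.66 FPKM in WT. Isg15, a ubiquitin-like protein induced by interferon, was low in all libraries (1.94, 1.71 and 1.62 FPKM in Tg against 1.23, 1.62 and 1.34 FPKM in WT). On the log2 scale the differences of sensors, transcription factors and an effector of the response lay on both sides of 0, with Stat2 at 0.015, Irf7 0.16, Ifih1 0.12 and Ifit1 -0.17.

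**Figure D2:**
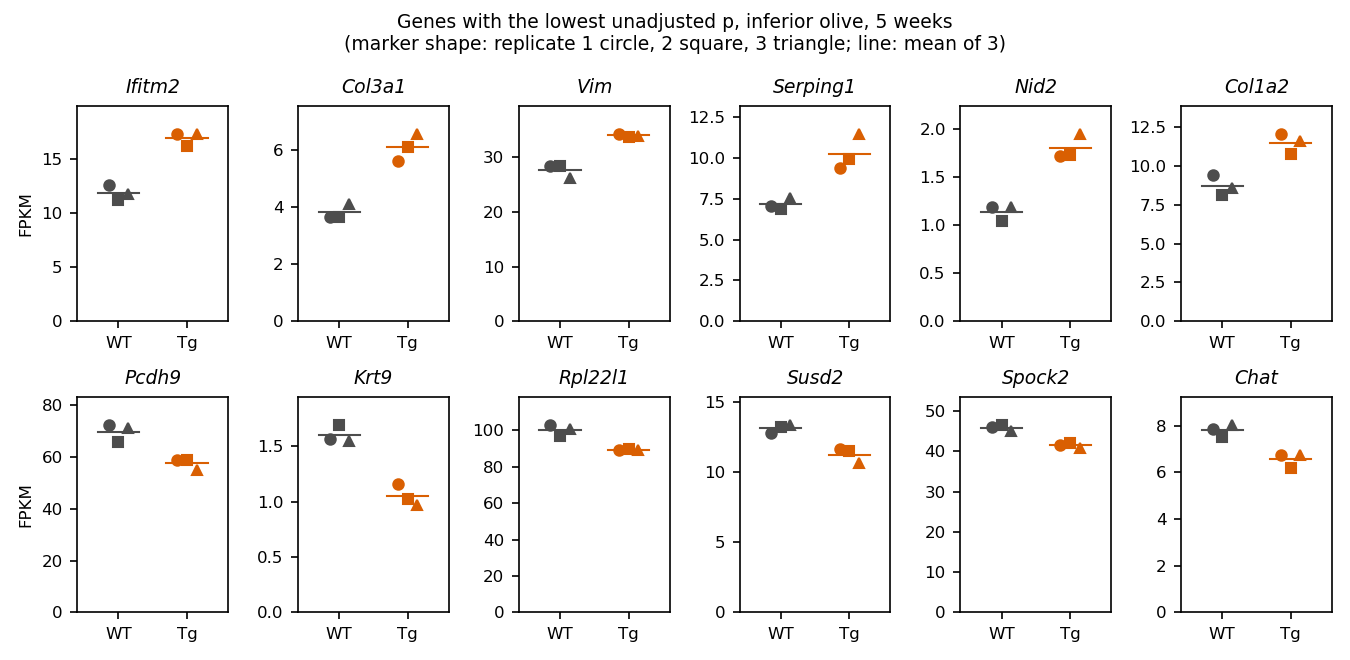
FPKM of the 6 genes with the lowest p in each direction (top row higher in Tg, bottom row lower), with 1 point per library and a line at the mean of 3. The y axes start at 0 and differ between panels, and in all 12 panels the Tg points lie wholly above or below the WT points.

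On the lower side the differences were smaller. Pcdh9, a protocadherin of neurons and oligodendrocytes, was at 72.5, 65.9 and 71.2 FPKM in the WT libraries and 59.02, 58.9 and 54.8 FPKM in the Tg libraries, a log2 difference of -0.28 ± 0.047 (SE) with an adjusted p of 0.456. Krt9, a keratin gene, was lower by a larger ratio but at low level (1.16, 1.02 and 0.968 FPKM in Tg against 1.57, 1.69 and 1.54 FPKM in WT, log2 difference -0.57 ± 0.10 (SE)). The other genes of the 6 were more abundant and had narrow spreads. Rpl22l1, a paralog of a ribosomal protein, was at 88.96, 89.8 and 88.9 FPKM in Tg against 103, 96.7 and 100.5 FPKM in WT, a log2 difference of -0.17 ± 0.034 (SE). Spock2, a proteoglycan of the extracellular matrix, was at 41.6, 42.004 and 40.8 FPKM in Tg against 45.9, 46.6 and 44.996 FPKM in WT, and Susd2, a membrane protein, at 11.6, 11.5 and 10.6 FPKM in Tg against 12.8, 13.2 and 13.4 FPKM in WT. The libraries of the genotypes did not overlap in any of these genes. The sixth, Chat, is described with the motor neuron markers.

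Among genes with an unadjusted p below 0.05 whose libraries did not overlap, the largest ratios included a gene with uneven libraries. Snord22, a small nucleolar RNA whose FPKM is inflated by its length, was at 7.27, 0 and 0 FPKM in the WT libraries and 8.15, 8.19 and 7.99 FPKM in the Tg libraries, so its difference rests on 2 WT libraries listed at 0. Sostdc1, Krt18 and Aqp1 belong to the choroid plexus list below, and Ltc4s, which encodes leukotriene C4 synthase, was at 2.89, 3.29 and 5.48 FPKM in Tg against 1.97, 1.29 and 2.62 FPKM in WT. On the lower side Tmem212, a marker of ciliated ependymal cells, was at 1.02, 0.802 and 0.894 FPKM in Tg against 1.54, 2.11 and 1.4 FPKM in WT, a log2 difference of -0.81 ± 0.16 (SE). Trim17, a ubiquitin ligase, was at 0.583, 0.887 and 0.843 FPKM in Tg against 1.01, 1.39 and 1.33 FPKM in WT. Xlr3b, an X-linked gene with close copies, was at 1.24, 1.16 and 1.07 FPKM in Tg against 2.13, 1.36 and 1.72 FPKM in WT and Vip, a neuropeptide, at 2.88, 2.7 and 1.89 FPKM in Tg against 4.31, 2.99 and 3.43 FPKM in WT. Of the 2 remaining names by this rule, Krt9 is given above, and 4932441J04Rik was at 0.437, 0.51 and 0.754 FPKM in Tg against 0.866, 1.02 and 0.855 FPKM in WT.

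Markers of the choroid plexus epithelium gave the largest difference of any cell type with more than 5 tested markers. Of 34 markers, 33 were tested, 32 were on the higher side in Tg, and the median log2 difference was 0.89, against -0.0031 over all genes. At an unadjusted p below 0.05, 30 were higher and 0 lower, where 4.05% of all genes were higher. Ttr, the most abundant of them, was at 641, 630.01 and 1059 FPKM in the WT libraries and 988, 1762 and 3006 FPKM in the Tg libraries. Tg replicate 3 was highest and Tg replicate 1 lay below WT replicate 3, so the groups overlapped. Enpp2, autotaxin, was at 425, 563 and 877 FPKM in Tg against 359, 361 and 454 FPKM in WT, and Tg replicate 1 again lay below WT replicate 3. Trpv4, a cation channel of the epithelium, was at 1.58, 2.69 and 3.14 FPKM in Tg against 1.23, 1.06 and 1.43 FPKM in WT (log2 difference 0.89 ± 0.23 (SE), adjusted p = 0.587), and its groups did not overlap. Sostdc1, an antagonist of bone morphogenetic proteins, was 2.31-fold higher (3.76, 4.68 and 9.37 FPKM in Tg against 1.94, 1.95 and 3.3 FPKM in WT), and Krt18, a keratin of epithelia, 2.3-fold (1.31, 2.35 and 3.38 FPKM in Tg against 0.814, 0.728 and 1.2 FPKM in WT). Aqp1, the water channel of the apical membrane, was at 2.8, 4.76 and 7.32 FPKM in Tg against 2.46, 1.98 and 2.79 FPKM in WT. In these genes too Tg replicate 3 was the highest library. The Tg libraries lay above all WT libraries in 12 of the 33 markers, against 5.96% of all genes. The 1 marker on the lower side was Slc29a4, a monoamine transporter that neurons also express (14.98, 15.8 and 15.1 FPKM in Tg against 15.6, 15.01 and 16.8 FPKM in WT).

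The summed level of the choroid plexus list was 1114, 1098 and 1664 FPKM in WT and 1550.1, 2539.6 and 4224 FPKM in Tg, so it varied within each genotype as well as between them, and Tg replicate 1 lay within the WT range. None of its markers was at 0 in any library. In bulk tissue a higher level of these transcripts can come from more cells or from more RNA per cell, which cannot be told apart. The count of 30 markers was 12 without WT replicate 2 and was 20 without WT replicate 1, and the median was 0.54 without Tg replicate 3. With the spread taken from the 12 inferior olive libraries of both ages, the count was 5.

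The genes that the study singled out in this comparison are a choice made on these same libraries, so their direction is not independent evidence. They are Lbp, which binds bacterial lipopolysaccharide, the secreted matricellular protein Nov, the growth factors Bmp7 and Gdf7, the folate receptor Folr1 and Klotho (Kl). The study reported them as differentially regulated by its own test (Cuffdiff), which was not used here. In limma all 6 were higher at an unadjusted p below 0.05, with log2 differences of 0.38 to 1.11, and none passed the correction. Without WT replicate 2 the count was 3 and without Tg replicate 3 it was 4. Folr1 was at 4.88, 4.11 and 7.83 FPKM in the WT libraries and 6.42, 11.98 and 20.9 FPKM in the Tg libraries and Kl at 9.69, 17.7 and 28.5 FPKM in Tg against 7.69, 7.18 and 10.01 FPKM in WT. Lbp was at 4.84, 8.1 and 13.9 FPKM in Tg against 3.94, 3.59 and 5.07 FPKM in WT, and Gdf7 was near the lower limit of testing (0.637, 0.874 and 1.35 FPKM in Tg against 0.468, 0.393 and 0.68 FPKM in WT). In these 4 genes Tg replicate 1 overlapped the WT libraries and Tg replicate 3 was the highest, as in the choroid plexus list, of which Folr1 and Kl are members. Bmp7 and Nov were separated: Bmp7 was at 3.76, 4.62 and 4.75 FPKM in Tg against 3.37, 3.5 and 3.09 FPKM in WT, and Nov, highest in Tg replicate 1, at 3.66, 3.03 and 2.75 FPKM in Tg against 2.27, 2.53 and 1.86 FPKM in WT. In both genes every Tg library lay above every WT library.

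Markers of leptomeningeal fibroblasts were also higher, and more evenly across the libraries. Of 34 markers 29 were tested, 28 were on the higher side with a median log2 difference of 0.44, and 20 were higher and 0 lower at an unadjusted p below 0.05, against 4.05% and 2.51% of all genes. In 19 of the 29 the 3 Tg libraries lay above the 3 WT libraries, against 5.96% of all genes. Dcn, the small proteoglycan decorin, was at 16.1, 15.2 and 17.4 FPKM in the WT libraries and 20.03, 20.6 and 25.1 FPKM in the Tg libraries, and Lum, lumican, at 3.03, 3.08 and 4.22 FPKM in Tg against 2.09, 2.14 and 2.41 FPKM in WT. Col6a2, a chain of type VI collagen, was at 4.41, 3.55 and 4.78 FPKM in Tg against 2.81, 2.85 and 2.91 FPKM in WT, and Lox, the enzyme that crosslinks collagen, at 1.01, 1.38 and 1.08 FPKM in Tg against 0.61, 0.632 and 0.707 FPKM in WT. All 4 were separated between genotypes, with log2 differences of 0.42, 0.60, 0.54 and 0.74. Igf2, a growth factor made by meninges and choroid plexus, was at 51.1, 77.2 and 100.5 FPKM in Tg against 40.4, 38.02 and 50.1 FPKM in WT, with Tg replicate 3 highest. Mgp, matrix Gla protein, was at 37.9, 48.5 and 70.5 FPKM in Tg against 33.2, 29.7 and 40.7 FPKM in WT, and its groups overlapped. Aldh1a2, the retinoic acid synthesis enzyme of the meninges, was at 6.55, 7.26 and 8.5 FPKM in Tg against 5.45, 5.6 and 4.71 FPKM in WT. The 1 marker on the lower side was Col6a3 (0.952, 0.71 and 0.777 FPKM in Tg against 0.786, 0.978 and 1.26 FPKM in WT). The transcription factor gene Foxc1 and Serpinf1 differed by 0.036 and 0.026 on the log2 scale, with unadjusted p of 0.676 and 0.696 in limma. The summed level of the list was 177 to 207 FPKM in WT and 228 to 338 FPKM in Tg, without overlap. The number of markers past the unadjusted threshold was between 19 and 24 when any 1 library was left out, and 9 with the spread of both ages.

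Of 21 collagen genes, 18 were tested, and 9 were higher at an unadjusted p below 0.05 (4.05% of all genes), among them Col1a1, Col1a2, Col3a1, Col6a1 and Col6a2, which are in the leptomeningeal list, and Col8a1 and Col8a2, which are in the choroid plexus list. Col6a3, given above, had the lowest log2 difference of the 18 (-0.27). The type IV chains of vessel basement membranes, Col4a1 and Col4a2, differed by -0.054 and -0.069 on the log2 scale. Col4a1 was at 7.1, 7.63 and 6.46 FPKM in Tg against 7.77, 7.3 and 6.9 FPKM in WT, with overlap. In the vessel wall, among 13 tested markers of smooth muscle cells and pericytes, 5 were higher at that threshold: the contractile genes Acta2 (4.7, 4.04 and 6.58 FPKM in Tg against 3.56, 2.66 and 3.96 FPKM in WT), Tagln, Myh11 and Des, and Vtn, vitronectin, at 31.6, 32.03 and 33.6 FPKM in Tg against 29.8, 27.4 and 30.1 FPKM in WT. Without WT replicate 2 the count was 2. The pericyte genes Rgs5, Pdgfrb and Abcc9 differed by -0.073, 0.064 and -0.032 on the log2 scale, none with an unadjusted p below 0.05. Of 16 endothelial markers 3 were higher at an unadjusted p below 0.05, with a median of 0.01. They were Vwf, von Willebrand factor (2.63, 2.59 and 2.89 FPKM in Tg against 1.96, 1.67 and 2.17 FPKM in WT), Clec14a (1.31, 1.47 and 1.64 FPKM in Tg against 1.05, 0.856 and 1.29 FPKM in WT) and Pecam1 (8.13, 7.82 and 8.43 FPKM in Tg against 7.44, 6.96 and 7.83 FPKM in WT), while Cldn5, the tight junction claudin of brain capillaries, was at 17.2, 15.8 and 15.99 FPKM in Tg against 18.8, 14.5 and 19.4 FPKM in WT.

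Growth factors reach the cerebrospinal fluid from meninges and choroid plexus, and several of these genes are markers of those tissues. Of the insulin-like growth factor axis 10 of 11 genes were tested, 9 were on the higher side, 6 with an unadjusted p below 0.05 (4.05% of all genes), and the median log2 difference was 0.29. The ligand Igf1 was at 3.71, 3.85 and 3.93 FPKM in the WT libraries and 4.42, 5.68 and 5.19 FPKM in the Tg libraries, without overlap. Among the binding proteins Igfbp2 was at 62.3, 98.7 and 133 FPKM in Tg against 53.5, 46.2 and 67.3 FPKM in WT, with Tg replicate 1 inside the WT range. Igfbp3 was at 7.999, 10.04 and 9.91 FPKM in Tg against 7.29, 7.62 and 7.47 FPKM in WT and Igfbp4 at 9.37, 8.37 and 10.04 FPKM in Tg against 7.41, 7.6 and 8.06 FPKM in WT, both without overlap. The receptors differed less, with Igf1r at 7.03, 7.2 and 6.39 FPKM in Tg against 7.24, 7.28 and 7.13 FPKM in WT and Igf2r at 5.5, 5.96 and 5.3 FPKM in Tg against 5.08, 4.68 and 5.68 FPKM in WT. Of the bone morphogenetic protein (BMP) genes all 19 were tested, 6 were higher at an unadjusted p below 0.05 and 0 lower (4.05% and 2.51% of all genes), and the median was 0.068. The 6 were the ligands Bmp5, Bmp6, Bmp7 and Gdf7 and the antagonists Nbl1 (18.01, 18.1 and 22.2 FPKM in Tg against 15.5, 14.8 and 15.01 FPKM in WT) and Sostdc1. Of these, Bmp7 and Gdf7 were singled out by the study on these same libraries, and Sostdc1 is in the choroid plexus list. The count is therefore not independent of the values above. The receptors Bmpr1a, Bmpr1b and Bmpr2 differed by 0.061, 0.012 and 0.0096 on the log2 scale and the antagonists Nog and Chrd by -0.04 and -0.082. In both axes Tg replicate 3 was the library with the highest summed level and Tg replicate 1 the lowest of the Tg libraries, the order of the choroid plexus list. The part of choroid plexus and meningeal transcripts in these differences was not tested.

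Markers of olivary neurons had a median near that of all genes. All 10 markers were tested, 6 on the higher side, with a median log2 difference of 0.017. Without Tg replicate 1 the median was 0.15, and 3 were higher and 0 lower at an unadjusted p below 0.05. With all 6 libraries Calb2, the calcium buffer calretinin, was the only one with an unadjusted p below 0.05 (92.7, 99.2 and 93.1 FPKM in Tg against 103, 100.02 and 105 FPKM in WT), and Slc17a6, the vesicular glutamate transporter of these neurons, was at 79.9, 80.8 and 72.7 FPKM in Tg against 82.6, 85.9 and 80.95 FPKM in WT. C1ql1, the complement-like protein that climbing fibers release onto Purkinje cells, was at 35.1, 43.5 and 43.8 FPKM in the WT libraries and 34.7, 43.4 and 53.1 FPKM in the Tg libraries, with Tg replicate 3 highest and Tg replicate 1 lowest. Crh and Htr5b had that order too, and in these 3 genes the Tg libraries spanned a wider range than the WT libraries. Of the ion channels of olivary oscillation, 3 of 13 were on the higher side with a median of -0.047 and 0 with an unadjusted p below 0.05. Hcn2, a pacemaker channel, was at 186, 175 and 169 FPKM in Tg against 184, 173 and 198 FPKM in WT, and Cacna1a, the P/Q-type calcium channel, at 17.7, 20.4 and 15.2 FPKM in Tg against 17.3, 16.8 and 16.6 FPKM in WT. Glutamate receptors (24 tested) and GABA and glycine receptors (18 tested) had medians of 0.0022 and -0.017, and 1 of these genes, Grin3b, an NMDA receptor subunit of motor neurons, had an unadjusted p below 0.05 (1.24, 1.12 and 1.16 FPKM in Tg against 1.47, 1.35 and 1.8 FPKM in WT). Partners of Atxn1 and targets of its corepressor Cic differed as little, with a median of -0.0084 over 12 genes. Among the 12 only Etv4, a transcription factor repressed by Cic, had an unadjusted p below 0.05 (3.26, 3.19 and 3.31 FPKM in Tg against 3.82, 3.6 and 3.46 FPKM in WT). Hox genes gave 2 of 9 higher at that threshold (4.05% of all genes), from 0 without WT replicate 3 or Tg replicate 1 to 5 without Tg replicate 3, with Hoxa4 at 13.3, 11.4 and 11.04 FPKM in Tg against 10.8, 10.7 and 9.5 FPKM in WT.

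The neuronal list with the lowest median was that of cholinergic motor neurons, which lie in the hypoglossal and ambiguus nuclei near the olive. Of 8 markers 6 were tested, and all 6 were lower in Tg at an unadjusted p below 0.05, where 2.51% of all genes were lower, with a median log2 difference of -0.26. Chat, the enzyme that makes acetylcholine, was at 7.88, 7.51 and 8.05 FPKM in the WT libraries and 6.77, 6.18 and 6.75 FPKM in the Tg libraries (log2 difference -0.25 ± 0.056 (SE), adjusted p = 0.532). Slc5a7, the choline transporter, was at 13.6, 12.2 and 14.2 FPKM in Tg against 16.2, 15.5 and 16.2 FPKM in WT, and Slc18a3, which loads acetylcholine into vesicles, at 8.77, 7.28 and 8.93 FPKM in Tg against 9.8, 9.47 and 11.4 FPKM in WT. Prph, the intermediate filament peripherin, was at 18.4, 17.1 and 21.4 FPKM in Tg against 21.8, 21.3 and 25.4 FPKM in WT and Calca, the gene of calcitonin gene-related peptide, at 14.98, 13.4 and 15.1 FPKM in Tg against 16.7, 16.4 and 15.8 FPKM in WT. In 4 of the 6 every Tg library lay below every WT library, against 6.03% of all genes, Tg replicate 2 being the lowest. Isl1, a transcription factor of motor neurons, was at 0.604, 0.469 and 0.967 FPKM in Tg against 0.917, 1.08 and 0.922 FPKM in WT and overlapped. Leaving out 1 library left 4 to 6 of them past the threshold, and with the spread of both ages 0 were. The glycinergic and GABAergic list gave values near WT, with a median of -0.0068. Among its genes Slc6a5, the glycine transporter, was at 82.1, 80.7 and 84.4 FPKM in Tg against 79.4, 78.3 and 79.95 FPKM in WT. The serotonergic list is given below.

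Glial lists had medians near 0. The 15 microglial markers had a median log2 difference of 0.021 and 0 with an unadjusted p below 0.05, and C1qa, a subunit of complement C1q, was at 24.9, 22.8 and 25.8 FPKM in Tg against 22.9, 23.1 and 21.7 FPKM in WT. The 15 oligodendrocyte markers had a median of 0.014, with Mbp, myelin basic protein, at 5589.6, 5204 and 6426 FPKM in Tg against 5089, 4974 and 6259 FPKM in WT. Olig2, the transcription factor of the oligodendrocyte lineage, was the only one of them with an unadjusted p below 0.05 (33.6, 28.6 and 30.01 FPKM in Tg against 27.5, 27.3 and 25.5 FPKM in WT). Among 12 astrocyte markers the median was -0.005, and 2 were higher at that threshold, where 4.05% of all genes were higher. They were Vim, which fibroblasts and endothelium express too, and Gfap, the filament protein of astrocytes, at 312, 335 and 312 FPKM in the WT libraries and 388, 342 and 407 FPKM in the Tg libraries (log2 difference 0.24 ± 0.065 (SE), adjusted p = 0.604). Slc1a2, the astrocytic glutamate transporter, was at 266, 247 and 222 FPKM in Tg against 273, 264 and 243 FPKM in WT. Ependymal markers went both ways. Of 8 tested, 2 were higher and 2 lower at an unadjusted p below 0.05, against 4.05% and 2.51% of all genes. Ccdc153 was at 2.03, 1.4 and 2.08 FPKM in Tg against 2.47, 2.46 and 2.61 FPKM in WT and Tekt1, a protein of cilia, at 1.36, 1.7 and 2.2 FPKM in Tg against 1.18, 1.22 and 1.09 FPKM in WT.

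**Figure D3:**
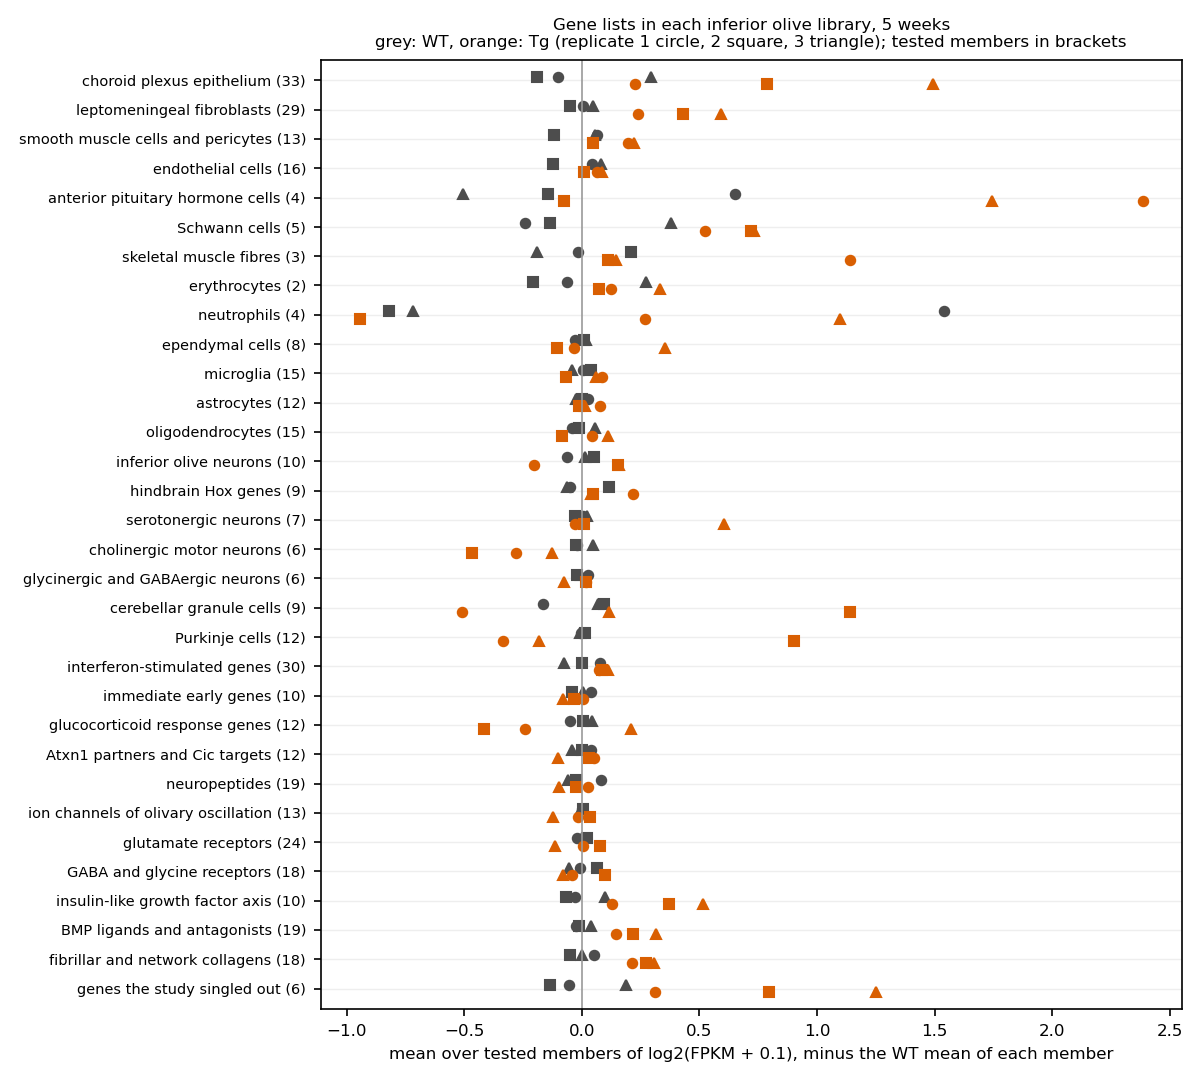
For each gene list, the mean over its tested members of log2(FPKM + 0.1), after subtracting each member's WT mean, with 1 point per library (grey WT, orange Tg). The 3 Tg points lie above the 3 WT points for leptomeningeal fibroblasts, collagens, BMP genes, the insulin-like growth factor axis, Schwann cells and the genes the study singled out, below them for cholinergic motor neurons, while single Tg libraries stand apart for pituitary, muscle, cerebellar and serotonergic markers.

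Several lists were set by 1 library each. Tg replicate 2 was highest for transcripts of the cerebellum: Gabra6, a receptor subunit of granule cells, was at 1.49, 2.89 and 2.41 FPKM in the WT libraries and 0.433, 15.3 and 2.9 FPKM in the Tg libraries. Cbln3, a secreted synaptic protein of the same cells, was at 0.733, 13.2 and 2.71 FPKM in Tg against 1.68, 2.7 and 2.47 FPKM in WT. Pcp2, the Purkinje cell gene whose promoter drives the transgene, was at 5.44, 4.46 and 4.93 FPKM in the WT libraries and 2.11, 21.96 and 1.28 FPKM in the Tg libraries. In all 3 genes the other Tg libraries lay near or below WT. The summed granule cell list was 40.7 to 46.2 FPKM in WT and 39.5, 98.8 and 46.8 FPKM in Tg. The cerebellar libraries of the same age, in their own table, held 1593, 1585 and 1627 FPKM of it in WT. The 9 tested granule cell markers had a median log2 difference of 0.28, and -0.094 without Tg replicate 2, and Reln was the only one with an unadjusted p below 0.05. The median of the 12 Purkinje cell markers in the olive was 0.13, and -0.084 without Tg replicate 2. Tg replicate 1 was highest for transcripts of the anterior pituitary, with Gh, growth hormone, at 8.01, 1.44 and 0.307 FPKM in the WT libraries and 86.1, 1.51 and 22.2 FPKM in the Tg libraries and Prl, prolactin, at 30.5, 0.392 and 2.54 FPKM in Tg against 0.763, 0.355 and 0.0932 FPKM in WT. It was also the highest library for skeletal muscle transcripts, with Mylpf, a myosin light chain, at 2.57, 0.818 and 0.793 FPKM in Tg against 0.561, 0.74 and 0.503 FPKM in WT. Tg replicate 3 was lower in pituitary markers than replicate 1 but above WT. It was also highest in serotonergic neurons of the raphe: Tph2, which makes serotonin, was at 8.29, 9.43 and 15.1 FPKM in Tg against 8.003, 8.65 and 9.39 FPKM in WT. The 7 markers of that list had a median of 0.21, and 0.029 without Tg replicate 3, with 0 at an unadjusted p below 0.05. Neutrophil markers such as S100a9 (5.58, 1.77 and 9.72 FPKM in Tg against 15.4, 1.91 and 2.61 FPKM in WT) were highest in WT replicate 1 as a sum. Of the erythrocyte list 2 genes were tested, 0 at an unadjusted p below 0.05, with Hbb-bt, a globin, at 12.2, 10.6 and 11.98 FPKM in Tg against 9.09, 8.2 and 12.2 FPKM in WT. Only 4 of 12 pituitary, 3 of 12 muscle and 4 of 8 neutrophil markers reached the limit of 0.5 FPKM in both genotypes, so medians of these lists describe few genes. The part of these transcripts in any other gene's difference was not tested.

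Of the Schwann cell markers, Prx, periaxin, which is made in peripheral myelin, was at 0.224, 0.232 and 0.551 FPKM in the WT libraries and 0.774, 0.798 and 0.842 FPKM in the Tg libraries and was not tested because its WT mean was under 0.5 FPKM. Ncmap was at 2.06, 2.09 and 2.13 FPKM in Tg against 1.85, 1.51 and 1.89 FPKM in WT. Pmp22, which other cells also express, was at 64.4, 59.6 and 68.3 FPKM in Tg against 55.8, 58.3 and 62.9 FPKM in WT. The 5 tested members had a median of 0.12. For Prx WT replicate 3 lay closest to the Tg libraries, and the groups did not overlap. Genes that respond to activity or stress within hours were described by 2 lists. At an unadjusted p below 0.05, where 4.05% of all genes were higher and 2.51% lower, 2 of 10 immediate early genes were lower, Fos (8.84, 7.95 and 7.98 FPKM in Tg against 9.4, 9.96 and 8.99 FPKM in WT) and Npas4 (0.512, 0.532 and 0.481 FPKM in Tg against 0.747, 0.869 and 0.626 FPKM in WT). Of the glucocorticoid response genes 2 of 12 were lower at that threshold, Zbtb16 (4.19, 3.89 and 6.3 FPKM in Tg against 8.34, 6.05 and 6.82 FPKM in WT) and Tsc22d3 (103, 86.5 and 115 FPKM in Tg against 113, 118 and 118 FPKM in WT), and the count without Tg replicate 3 was 8. Mt2, a metallothionein of that list, was at 332, 288 and 435 FPKM in Tg against 409.9, 396 and 410.04 FPKM in WT, so that Tg replicate 2 was lowest and Tg replicate 3 highest. Of 19 tested neuropeptides 2 were higher and 3 lower at that threshold, Penk being one of the higher ones (127, 135 and 131 FPKM in Tg against 125, 126 and 116 FPKM in WT).

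At 12 weeks the inferior olive of Tg and WT mice was profiled in other animals, in a table normalized on its own, so only differences within a table were compared. The genotype difference changed with age in 0 of 13253 genes at an adjusted p below 0.05 (0%, limma interaction term), and in 856 at an unadjusted p below 0.05. The choroid plexus list had opposite medians at the ages, 0.89 at 5 weeks and -1.47 at 12 weeks, where 1 of 33 markers was on the higher side. The older libraries varied widely, with a summed level of 4614, 2724 and 1318 FPKM in WT and 1822, 1108 and 265 FPKM in Tg, and the interaction was called for 0 of 33 markers. Leptomeningeal markers kept a positive median of 0.21, with 23 of 27 on the higher side. The 5 genes with the lowest interaction p were Cox6b2, Mgat4b, Trim17, Cpne2 and Lrrc8a, all with an adjusted p of 0.614. Cpne2, a calcium-dependent membrane-binding protein, was at 6.56, 6.32 and 6.09 FPKM in Tg against 5.44, 5.38 and 4.79 FPKM in WT at 5 weeks, a log2 difference of 0.28 against -0.40 at 12 weeks. Cox6b2, a subunit of cytochrome c oxidase, differed by 0.33 and -0.80. The motor neuron list had a median of 0.025 at 12 weeks, where 5 of 6 markers were on the higher side.

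Of 13414 genes tested at both ages, 886 had an unadjusted p below 0.05 at 5 weeks and 461 at 12 weeks. They shared 82, which is 9.26% of the first and 17.8% of the second. In 64 of the shared genes the directions were opposite, and 51 of those were higher at 5 and lower at 12 weeks. Serping1 and Mustn1, a small nuclear protein of muscle and bone, were among the 18 with the same direction. Ifitm2 itself differed by 0.51 at 5 weeks and 0.49 ± 0.23 (SE) at 12 weeks, and Col3a1 by 0.66 and 0.58 ± 0.33 (SE). Vim, in contrast, differed by 0.30 and 0.024. At 12 weeks the unadjusted p of Ifitm2 and Col3a1 was 0.064 and 0.116 in limma, so neither is among the 18. The plot of summed marker levels shows the libraries of both ages.

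**Figure D4:**
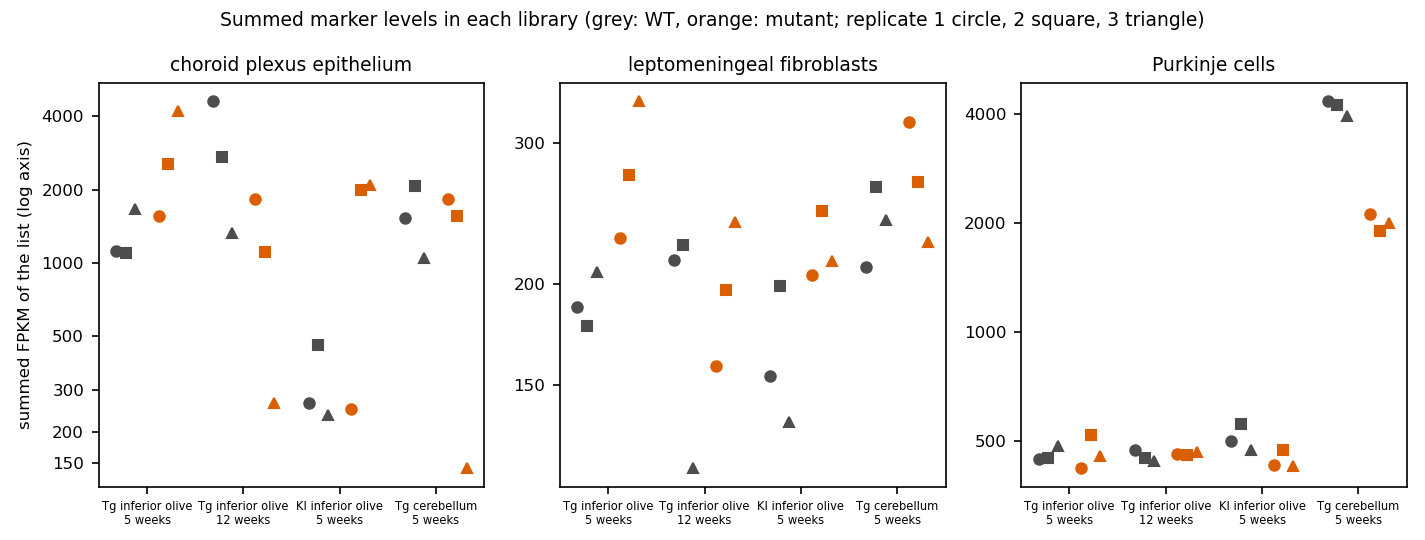
Summed FPKM of 3 marker lists on log axes in each library of 4 tables, each table normalized on its own (grey WT, orange mutant). Choroid plexus markers span 265 to 4614 FPKM within the 12 week olive table and vary within every genotype, whereas Purkinje cell markers separate the genotypes in the cerebellum alone.

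The KI inferior olive at 5 weeks allowed the transgenic effect to be set beside that of a model in which the olive itself expresses the expanded gene, although model and strain cannot be told apart. The genotype difference varied with the model in 2 of 13081 genes (0.0153%) at an adjusted p below 0.05. Crh, at 13.1, 19.2 and 22.4 FPKM in Tg against 17.4, 17.1 and 18.6 FPKM in WT here, had a log2 difference of 0.0076 in Tg and -1.90 in KI, and the difference between models was -1.91 ± 0.23 (SE, adjusted p = 0.0336). Id4, an inhibitor of basic helix-loop-helix transcription factors, differed by 0.15 in Tg (35.7, 32.5 and 35.02 FPKM in Tg against 30.8, 33.01 and 29.1 FPKM in WT) and -0.48 in KI, with an adjusted p of 0.0345. Both calls were lost when any 1 FVB/NJ WT library, Tg replicate 2 or 3, or KI replicate 2 or 3 was left out, with a lowest adjusted p of 0.0581 to 0.184 over these fits. The call of Id4 was lost as well without Tg replicate 1, KI replicate 1 or C57BL/6J WT replicate 3. Nppc, a natriuretic peptide, and Mdfi, an inhibitor of myogenic factors, came next, both with an adjusted p of 0.092 and with log2 differences of 0.17 and 0.28 in Tg against -0.60 and -1.21 in KI. The interferon-stimulated genes had a median of 0.094 in Tg and 0.32 in KI, where all 30 were on the higher side, and the interaction was called for 0 of them. The choroid plexus medians were 0.89 over 33 markers in Tg and 1.38 over the 22 of them that were also tested in KI. The whole list summed to 249, 1994 and 2092 FPKM in the KI libraries against 265, 458 and 236 FPKM in their WT. Leptomeningeal and motor neuron markers were on the same side in both models, with medians of 0.44 and 0.32 for the first and -0.26 and -0.32 for the second. Of 13237 genes tested in both models, 852 had an unadjusted p below 0.05 in Tg and 798 in KI. They shared 133 (15.6% of those in Tg and 16.7% of those in KI), and 107 of the shared genes had the same direction. Over all genes tested in each comparison, 6.56% in Tg and 6% in KI had an unadjusted p below 0.05.

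The cerebellum of Tg mice, where Purkinje cells express the transgene, differed far more at 5 weeks. There 550 of 13453 genes were called (4.09%), against 0 in the olive, and the genotype difference depended on the tissue in 318 of 12677 genes (2.51%), 295 of them with the lower value in the cerebellum. The labels do not say whether both tissues came from the same mice. The 5 genes with the lowest interaction p were Plcb3, Hpcal1, Creg1, Fam21 and Ywhah. Plcb3, a phospholipase of Purkinje cells, was at 4.64, 4.45 and 4.27 FPKM in the WT libraries and 4.87, 4.98 and 4.9 FPKM in the Tg libraries in the olive. Its mean in the cerebellum was 19.04 FPKM in WT and 8.05 FPKM in Tg. The difference between tissues was -1.37 ± 0.063 on the log2 scale (SE, adjusted p = 3e-07). Hpcal1, a neuronal calcium sensor, Creg1, a secreted glycoprotein, Fam21, a subunit of an endosomal complex, and Ywhah, a 14-3-3 protein, had log2 differences of 0.072, -0.051, 0.013 and -0.041 in the olive and -1.15, -0.96, -0.88 and -0.90 in the cerebellum. Of the 493 genes lower in the cerebellum 463 were tested in the olive, where 227 were on the higher and 236 on the lower side. Their median was -0.004 in the olive and -0.42 in the cerebellum. At an unadjusted p below 0.05, 17 of the 463 were higher and 26 lower in the olive, against 4.05% and 2.51% of all genes.

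All 12 Purkinje cell markers were on the lower side in the Tg cerebellum, with a median of -1.02, and the interaction with tissue was called for 8 of the 12. Rgs8, a regulator of G protein signaling, was at 17.8, 18.02 and 17.1 FPKM in the WT libraries and 16.7, 25.1 and 16.5 FPKM in the Tg libraries in the olive and differed by 0.11 there and -1.54 in the cerebellum. Pcp4, a calmodulin regulator that olivary neurons also express, was at 230.1, 233 and 250.3 FPKM in the WT libraries and 219, 232 and 231 FPKM in the Tg libraries and differed by -0.065 and -1.14. Of the 57 genes higher in the cerebellum, 55 were tested in the olive and 8 of them were higher there at an unadjusted p below 0.05 (4.05% of all genes). Gfap, with a log2 difference of 0.24 in the olive, differed by 0.57 in the cerebellum (adjusted p = 9.72e-05). The choroid plexus list had a median of -0.61 in the cerebellum, opposite to the olive, with sums of 1832, 1557 and 142 FPKM in Tg and 1519.9, 2067 and 1045 FPKM in WT. Leptomeningeal markers had a median of 0.20 there, with 26 of 29 on the higher side.

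**Figure D5:**
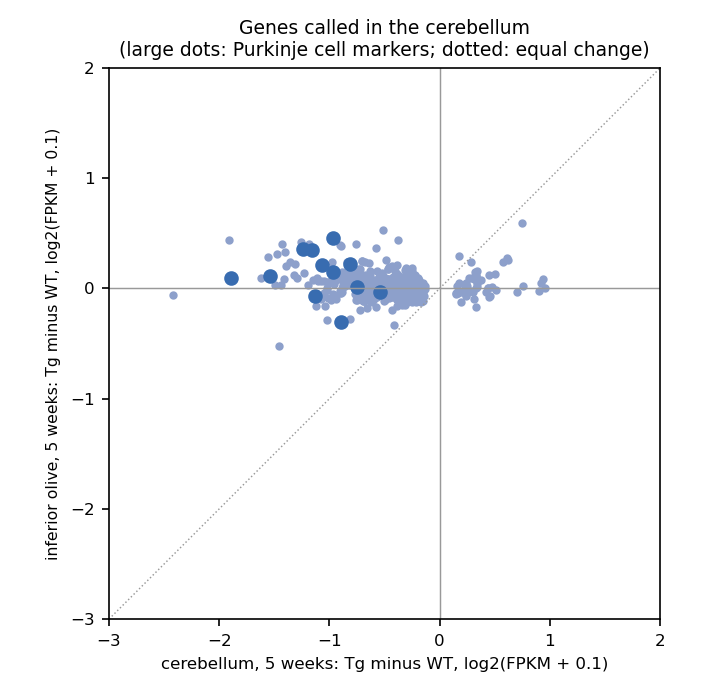
Genes called in the Tg cerebellum at 5 weeks, with the Tg minus WT difference in log2(FPKM + 0.1) in the cerebellum on the x axis and in the inferior olive on the y axis; large dots are Purkinje cell markers and the dotted line marks equal change. Most points lie along the horizontal line, between -0.53 and 0.59 in the olive whatever their difference in the cerebellum.

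6 genes, looked for after the values were seen, had an unadjusted p below 0.05 and a higher value in Tg in the olive at both ages and in the cerebellum at 5 weeks. They were Serping1, Cp (ceruloplasmin), Lyz2 (lysozyme of myeloid cells), Nov, Mrc1 (the mannose receptor of perivascular macrophages) and Mustn1. Higher at that threshold were 561 of 13853 genes in the 5 week olive, 201 of 13866 in the 12 week olive and 635 of 13453 in the cerebellum. Whether 6 shared genes exceed the number expected by chance was not tested. Mustn1 was at 0.52, 0.71 and 0.642 FPKM in the WT libraries and 0.954, 0.786 and 1.26 FPKM in the Tg libraries in the olive at 5 weeks. Its log2 differences were 0.59, 0.95 and 0.75 in the 3 tables, and it was called in the cerebellum (adjusted p = 0.00868). Mrc1 was at 1.46, 1.6 and 1.7 FPKM in Tg against 1.19, 1.06 and 1.35 FPKM in WT and Lyz2 at 9.16, 10.3 and 12.5 FPKM in Tg against 8.35, 6.82 and 7.22 FPKM in WT in the 5 week olive. The libraries of the genotypes did not overlap in these genes there.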

How the data were processed

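The authors dissected the tissue, sequenced poly-A selected RNA as paired-end reads, aligned them to mm10 with TopHat2 (2.1.0) and computed FPKM with Cufflinks (2.2.1), using Cuffnorm separately on the 6 libraries of each deposited table. Columns with the authors' Cuffdiff comparisons (log2 fold changes, p-values, q-values) were not used, and 0 columns of sample values were left unmatched. Of 26518 entries 2904 (11%) have no symbol and 26 have symbols turned into date numbers, and both kinds were left out. Start positions were read as 0-based and raised by 1. Whether Cufflinks used strand is not given in the sources used here.

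Genes whose mean reached 0.5 FPKM in Tg and in WT were tested here on log2(FPKM + 0.1) with limma (3.58.1, R 4.3.3; eBayes with trend) and Benjamini-Hochberg adjustment over all tested genes. Differences and folds are on that scale, which understates changes of low genes. Differences between ages, models and tissues were interaction terms over 12 libraries. Fragment totals are unknown, so no counting interval is given. The scripts were tested on simulated data. Members and gene lists were chosen with earlier results of these data known.

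Genes were named by rule: the 6 lowest p in each direction at 1 FPKM or more, the 6 largest folds in each direction without overlap at an unadjusted p below 0.05, for each list the 3 most abundant and 3 lowest p, Atxn1, Pcp2, Ttr, Crh and the genes of the study, and the 5 lowest p of each interaction. Other list members named were chosen after their values were seen, and a few results named by the rule are not reported here. Promoters were copied from RefSeq (GRCm38.p6). Alternatives were other pseudocounts, filters, scalings, moderation, library weights, the replicate block, a spread shared with 12 weeks and each library left out.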

Additional observations from a re-analysis of the deposited data

Results flagged for a closer look

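Crh and Id4 are listed because the genotype difference in the 5 week inferior olive depended on the model. In KI minus Tg, the log2 difference was -1.91 for Crh and -0.63 for Id4, with limma interaction adjusted p values of 0.0336 and 0.0345. Model and strain cannot be told apart, and the 2 tables were normalized separately.

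Plcb3, Hpcal1, Creg1, Fam21 and Ywhah are listed because their genotype difference at 5 weeks depended on the tissue. In cerebellum minus inferior olive it was -1.37 for Plcb3, -1.22 for Hpcal1, -0.91 for Creg1, -0.89 for Fam21 and -0.85 for Ywhah on the log2 scale, with limma adjusted p values of 3e-07 to 7.33e-07.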

How the results depend on the processing

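The count of called genes in the 5 week Tg olive was 0 with the settings used and 2 with robust moderation. Leaving out 1 library gave 0 to 2 called genes, the highest count without WT replicate 3. Genes lower at an unadjusted p below 0.05 numbered 527 with library weights, where Tg replicate 3 had the lowest weight of 0.41, and 195 to 571 with 1 library left out. Genes higher at that threshold numbered 336 with a spread shared with the 12 week olive. The age interaction gave 1 gene without a filter on low values. The model interaction gave 0 without a trend and 0 to 8 with 1 library left out, and the tissue interaction stayed between 251 and 343. The cause of these changes was not tested. Of the list medians 10 of 543 alternative values moved by more than the spread between libraries. A change of sign was counted only where the main median exceeded that spread, and there were 0. Medians within that spread did change sign. The neutrophil median went from 0.16 to -0.49 with library weights. Without Tg replicate 2, the granule cell median went from 0.28 to -0.094 and the Purkinje cell median from 0.13 to -0.084.

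Same-numbered WT and Tg libraries deviated from their group means with correlations of 0.269, -0.22 and 0.2, taken over genes. Genes of the same libraries do not vary independently. For WT replicates 2 and 3 the highest correlation was with a Tg library of another number. Deviations from a mean of 3 libraries constrain each other, so these values cannot settle whether the numbers pair the libraries. With the replicate block 3 genes were called, Ifitm2, Col3a1 and Sostdc1, each at an adjusted p of 0.0439 in limma. At an unadjusted p below 0.05, 689 genes were higher and 455 lower with the block, against 561 and 348 without it. Whether the libraries were paired was not tested further.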
